A study of Mus musculus with 19 samples.

Results

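The proteasome is the protease that degrades ubiquitin-tagged proteins in the cytosol and nucleus. Its core particle is a barrel of stacked rings, with outer rings of alpha subunits (Psma genes) that gate the entry and inner rings of beta subunits (Psmb genes), of which Psmb5, Psmb6 and Psmb7 carry the proteolytic sites. The regulatory particle that caps the barrel recognises ubiquitin chains, removes them and unfolds the substrate. It has a base of ATPases (Psmc genes) and non-ATPase subunits and a lid (both named Psmd). Cells raise the subunit genes together when proteasome activity is limiting, largely through the transcription factor Nfe2l1, and brain endothelial cells, which form the blood-brain barrier, use the same constitutive machinery as other cells.

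Described here are 42 genes of the constitutive proteasome, taken from 30176 genes that had an array row carrying their symbol alone. They were chosen by symbol: every Psma, Psmb, Psmc, Psmd, Psmf and Psmg gene plus the activators Psme3 and Psme4, without the interferon-inducible Psmb8, Psmb9 and Psmb10 and without pseudogene rows. The same naming rule finds 43 genes in RefSeq. The missing one, Psmb5, the chymotrypsin-like catalytic subunit, shared its only row with the microRNA gene Mir686 and was given no value. The set held 8 alpha ring genes, 7 beta ring genes, 6 ATPases, 3 other base subunits, 8 lid subunits, 3 chaperones of regulatory particle assembly, 4 chaperones of core assembly, 1 inhibitor and 2 activators. "Core" below means the 13 alpha and beta subunits without the tissue-restricted Psma8 and Psmb11, and "regulatory particle" the 17 ATPase, base and lid subunits.

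RNA came from CD31+ brain endothelial cells (bECs) sorted from brain without cerebellum, brainstem and meninges. The animals were young adult male wild-type C57BL/6N mice, with 1 array for each of 19 mice. Home cage controls (HC, n = 4) lived beside another mouse behind a divider. Defeated mice met an aggressive CD-1 male for 10 min a day over 1 day (CSD1, n = 3), 7 days (CSD7, n = 4) or 14 days (CSD14, n = 4), and a further group was returned to home cage housing for 7 days after 14 days of defeat (CSDrec, n = 4). Mice of CSD7, CSD14 and CSDrec were chosen for stress-susceptible behaviour and stand for susceptible animals only, whereas single-defeat mice had no behavioural test. Values are deposited log2 intensities, on which a difference of 1 is 2-fold. The level of a gene depends on its probes, so levels are compared between animals and not between genes.

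HC 1 and HC 2 stood apart from the other arrays before any proteasome gene was considered. The SD of all tested rows was 1.58 and 1.54 on these arrays against 1.72 to 1.84 on the other 17. Positive and negative control probe sets were also less well separated, by an ROC area of 0.85 and 0.83 where the other arrays had 0.89 to 0.93. The labels give these mice the lowest animal numbers of the series, without saying what the numbering stands for, and no other label sets them apart. The other controls are HC 5 and HC 6, and every stressed animal except CSD1 4 has a number from 9 to 31. Group and number thus largely go together, and a difference from HC cannot be told apart from one that follows the numbering. Because HC 1 and HC 2 stood apart, differences from HC are given below both with and without these 2 arrays. The endothelial markers Pecam1, Cdh5, Tie1, Cldn5, Flt1 and Slco1c1 were high in every animal (mean of the 6, 10.0 to 10.5). Microglial markers differed between groups: the mean of 9 such genes was 4.30 to 4.55 in HC, 4.70 to 6.27 in CSD1, 4.99 to 6.70 in CSD7, 5.13 to 5.57 in CSD14 and 5.20 to 5.95 in CSDrec, and 4, 9, 2 and 0 of the 9 passed the test as higher in these 4 groups. Pericyte markers split the controls, with a mean of 4.65 over HC 1 and HC 2 and 7.16 over HC 5 and HC 6. Every stressed animal lay between these pairs, at 5.17 to 6.91, so HC 5 and HC 6 were also extreme. Without HC 1 and HC 2 the median pericyte difference from HC was -1.49, -1.38, -1.98 and -1.02 in CSD1, CSD7, CSD14 and CSDrec. Of the other markers, Slc1a2 (astrocytes) passed in CSD7, Stmn2 (neurons) in CSD1, CSD7 and CSD14, and Cldn5, Tie1 or Cdh5 (endothelium) in the same 3 groups, and none for border macrophages, pericytes, smooth muscle, oligodendrocytes, erythrocytes (1 gene with a row) or lymphocytes did. Border macrophage markers still averaged 4.02 in CSDrec against 3.05 in HC, though CSDrec 31 stood at 3.10. Their median difference in CSDrec was 0.84, and 0.78 without HC 1 and HC 2. All 6 were higher there at an unadjusted p under 0.05, as were 19.9% of all rows. Of all rows, 5.84%, 9.04%, 6.87% and 0.0167% passed as higher in the 4 groups. Without HC 1 and HC 2 no marker of any type passed. The median microglial difference was then 1.31, 1.45, 1.04 and 1.08, beside 1.39, 1.52, 1.11 and 1.24 with 4 controls. The part of these cell types in the proteasome results was not tested, and in sorted cells pooled on 1 array fewer cells of a type and less RNA per cell cannot be told apart.

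Expression of 41 of the 42 genes lay above a level of 3.10, below which 95% of 1758 rows for chemosensory receptors (smell, pheromone and taste genes, not expected in endothelium) lay. Rows above this level are called expressed rows below. The exception was Psmb11, the thymus-restricted beta subunit, with a mean of 2.86.

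After 1 day of defeat, 17 of the 42 proteasome genes passed the test as higher than in HC (limma across all 65956 rows, Benjamini-Hochberg adjusted p under 0.05), and 0 did without HC 1 and HC 2 or with all arrays set to 1 distribution. None was lower in any of the 4 comparisons, where 0.960%, 1.96%, 1.03% and 0% of all rows were. At 7 days 12 passed, at 14 days 5 and after recovery 0. These are 40.5%, 28.6%, 11.9% and 0% of the set, against 5.84%, 9.04%, 6.87% and 0.0167% of all rows tested and 12.6%, 19.2%, 14.5% and 0.0364% of the 30254 expressed rows. At an unadjusted p under 0.05, 38, 29, 26 and 17 members were higher, and 19.1%, 21.4%, 19.8% and 19.9% of all rows were. Ordered from CSD1 to CSDrec, the median member difference was 0.50, 0.35, 0.32 and 0.26, while the median was 0.02, 0.03, 0.04 and 0.06 over all rows and 0.23, 0.22, 0.21 and 0.22 over expressed rows. The share of the set that passed was above that of expressed rows in CSD1 and CSD7. In CSD14 it was near that share, and in CSDrec almost no row of any kind passed. Adjusted over expressed rows alone, 30, 18, 10 and 2 of the 41 expressed members passed, and 19.1%, 25.1%, 20.2% and 8.26% of the expressed rows did.

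The test depended on HC 1 and HC 2, the 2 lowest of the 19 arrays in 37 of the 42 genes. With these 2 arrays left out, no member passed in any comparison with HC (lowest adjusted p = 0.302 in CSD1), and 0%, 0.00455%, 0.00303% and 0% of all rows were higher. The median difference then became 0.19, 0.063, 0.031 and -0.028, beside 0.06, 0.06, 0.05 and 0.05 over expressed rows. At an unadjusted p under 0.05, 13, 4, 3 and 1 members were higher, and 5.65%, 6.02%, 5.74% and 4.88% of all rows were. Leaving out HC 1 or HC 2 alone also left 0 members, and leaving out CSD1 18 or CSD1 19 left 0 in CSD1, while 39 passed in CSD1 without HC 6, 36 without HC 5 and 28 without CSD1 4. In CSD7 the count was 1 without CSD7 16 or CSD7 17 and 30 without HC 6, and in CSD14 it was 0 without CSD14 13 and 29 without HC 6. No share of all rows was counted for the fits that left out 1 animal. Their counts therefore show how unstable the calls were and cannot be set against a background. With all arrays set to 1 distribution, no member was higher and the medians were 0.090, -0.0034, 0.0086 and -0.049.

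**Figure D1:**
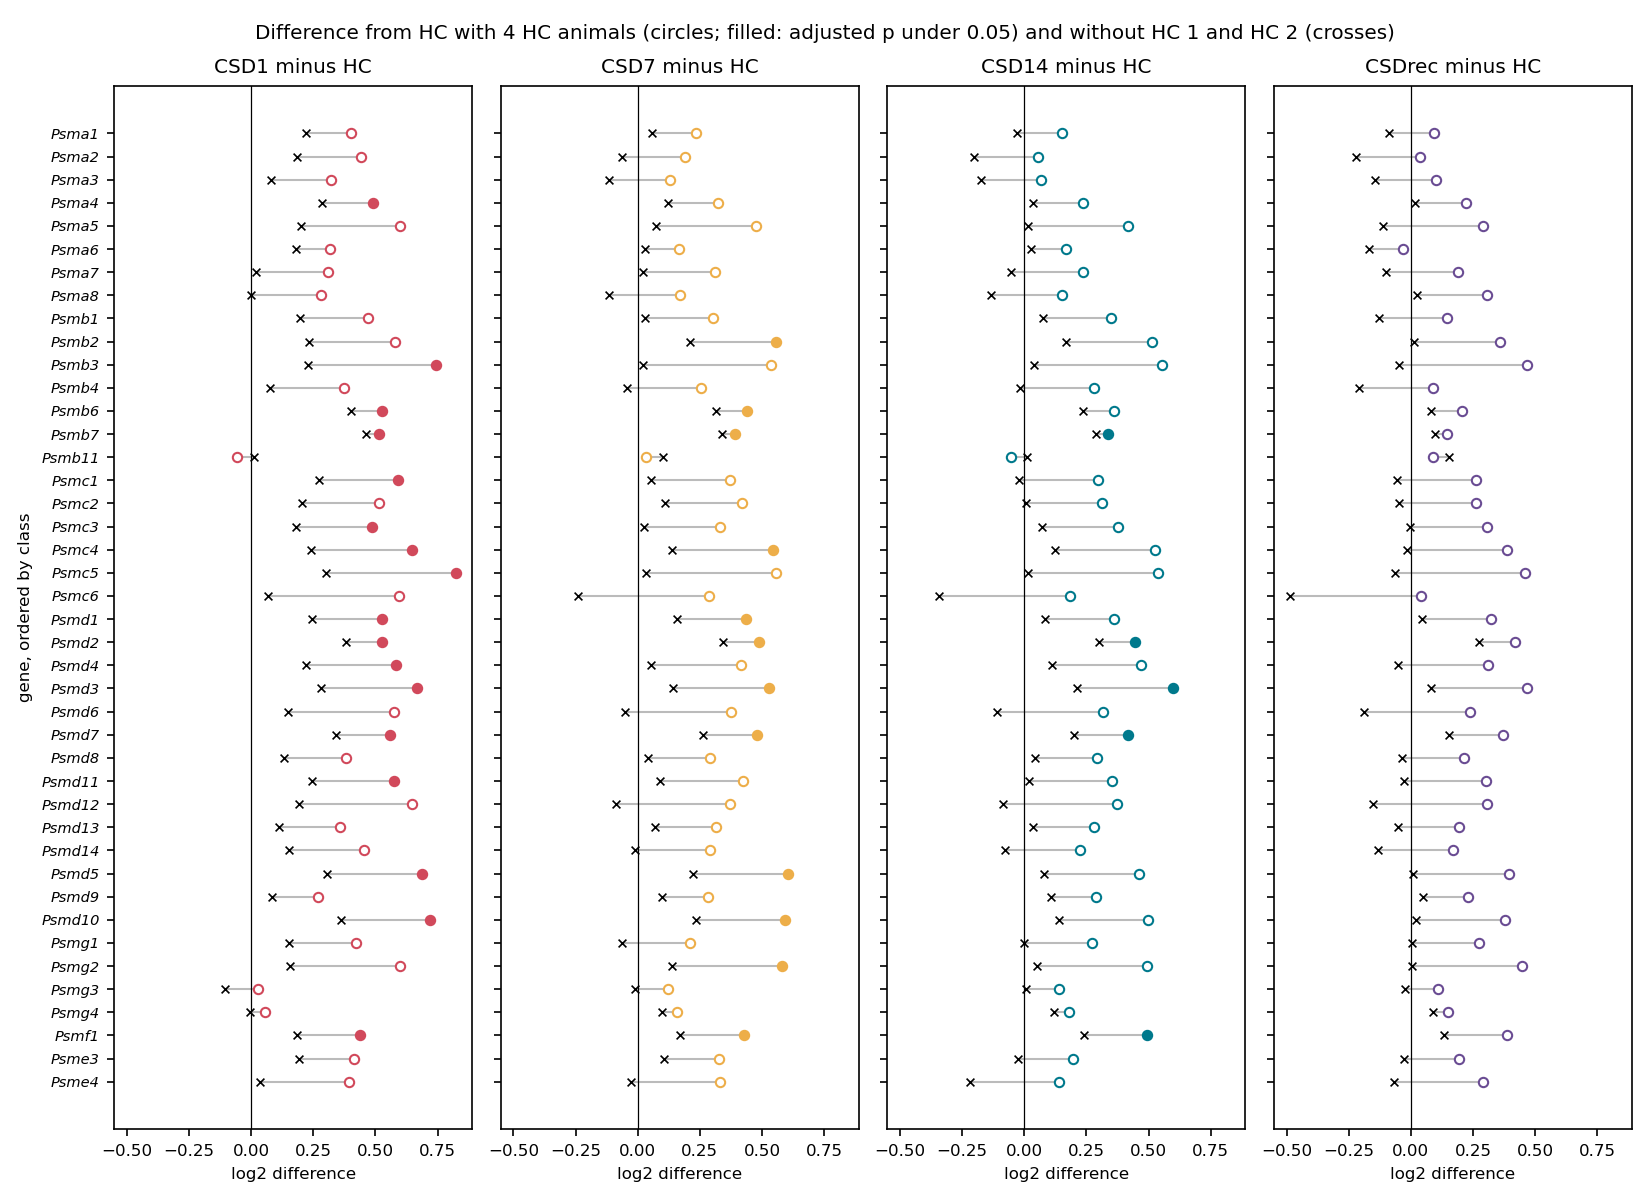
Log2 difference from HC of each of the 42 genes (vertical axis, ordered by class) in the 4 comparisons. Circles use all 4 HC animals and are filled where the adjusted p was under 0.05 (17, 12, 5 and 0 genes), and crosses leave out HC 1 and HC 2, which moves nearly every gene to the left and leaves no gene past the test.

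**Figure D2:**
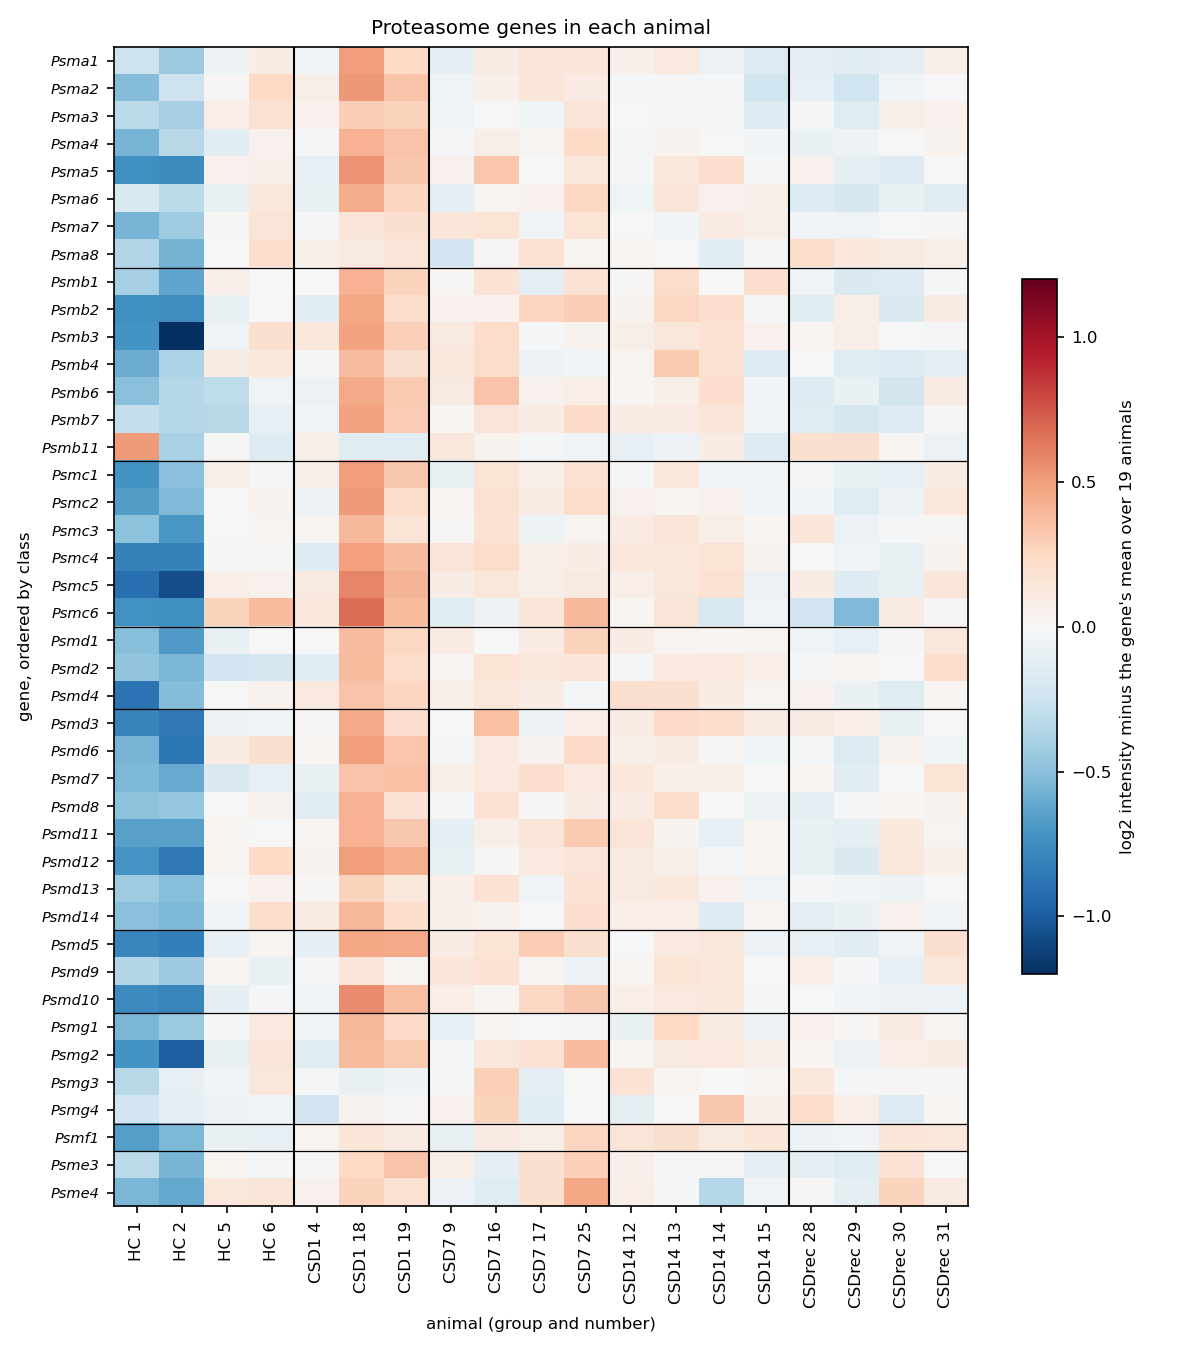
Log2 intensity of each gene (rows, ordered by class) in each of 19 animals (columns), shown as the deviation from the gene's own mean over the animals. HC 1 and HC 2 are the lowest columns and CSD1 18 and CSD1 19 the highest.

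CSD1 had the highest mean of the 5 groups in 35 of 42 genes, and HC the lowest in 40. Low HC values were not particular to the set. Of expressed rows, 86.7%, 84.5%, 85.0% and 88.6% had a positive difference from HC in CSD1, CSD7, CSD14 and CSDrec. The members' mean rank within an array, as a percentile of tested rows, was 87.7 in HC. It was 88.2, 88.0, 87.9 and 87.8 in the 4 stress groups. The order CSD1, CSD7, CSD14, CSDrec from high to low held in 25 genes. No share of all rows was counted for this order or for the highest and lowest group means. Genes read on the same arrays are not separate observations. CSD1 was the most dispersed stress group: the mean over all members was 6.18 in CSD1 4, 6.56 in CSD1 18 and 6.43 in CSD1 19, against 5.66, 5.61, 6.16 and 6.25 in HC 1, 2, 5 and 6. CSD1 18 was the highest of all arrays in 32 genes, and CSD1 4 was the lowest of its group in 40. In 16 genes both HC 5 and HC 6 lay above CSD1 4. The mean of all members ranged from 6.20 to 6.34 in CSD7, 6.17 to 6.29 in CSD14 and 6.11 to 6.23 in CSDrec, inside or next to the range of HC 5 and HC 6.

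In 8 members all CSD1 animals lay above every HC animal, a separation that HC 1 and HC 2 do not set because HC 5 or HC 6 was the highest control. These were Psmb7, Psmc5, Psmd2, Psmd3, Psmd4, Psmd7, Psmd11 and Psmf1. The same held for 8 in CSD7 (Psmb2, Psmb6, Psmb7, Psmc4, Psmd2, Psmd5, Psmd7, Psmd10), 8 in CSD14 (Psmb6, Psmb7, Psmc4, Psmd1, Psmd2, Psmd3, Psmd7, Psmf1) and 2 in CSDrec (Psmd2, Psmf1). These counts are 19%, 19%, 19% and 4.76% of the set, and 9.78%, 7.47%, 10.1% and 8.38% of all rows and 19.5%, 14.8%, 19.5% and 15.6% of expressed rows were separated in the same way. The members' share was thus close to that of expressed rows in CSD1 and CSD14 and lower in CSDrec. The excess in CSD7 was small and was not tested.

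**Figure D3:**
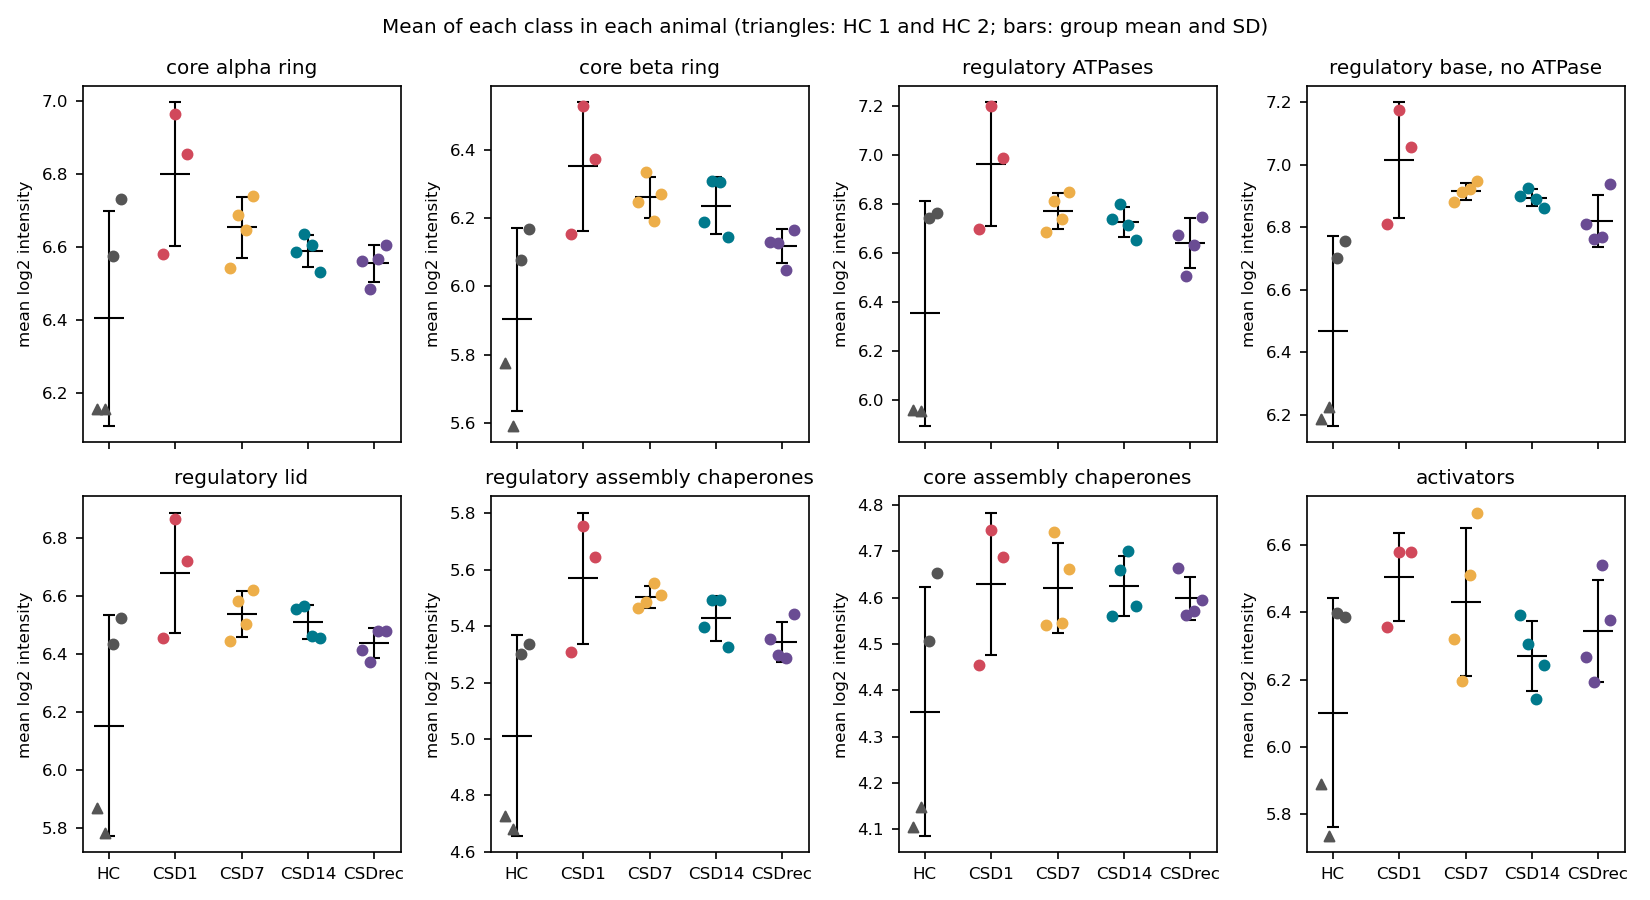
Mean log2 intensity of the genes of 8 classes in each animal, by group, with the group mean and SD as bars. Triangles mark HC 1 and HC 2, which are the lowest animals in all 8 panels.

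Beside the counts of every class below, 12.6%, 19.2%, 14.5% and 0.0364% of expressed rows passed as higher in CSD1, CSD7, CSD14 and CSDrec. In the alpha ring, whose subunits form the gate of the barrel, 1 of 8 genes passed in CSD1 and none later. That count was near the share of expressed rows in CSD1. The gene was Psma4, at 0.49 ± 0.12 (SE, adjusted p = 0.0332) and 0.29 ± 0.11 without HC 1 and HC 2. The ring's median difference was 0.36, 0.21, 0.16 and 0.14 in the 4 comparisons, and 0.18, 0.03, -0.04 and -0.11 without these 2 arrays, which turned the sign in CSD14 and CSDrec. In this and the following accounts, values are listed by animal number within each group (HC 1, 2, 5, 6, then CSD1 4, 18, 19, CSD7 9, 16, 17, 25, CSD14 12 to 15, CSDrec 28 to 31).

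Psma3 was measured at 6.96, 6.87, 7.35 and 7.45 in HC, 7.33, 7.57 and 7.55 in CSD1, 7.24, 7.27, 7.22 and 7.43 in CSD7, 7.27, 7.26, 7.26 and 7.12 in CSD14, and 7.25, 7.13, 7.34 and 7.32 in CSDrec. HC 5 and HC 6 lay above every CSD14 animal. The difference of CSD14 from HC was 0.07 ± 0.11 (SE, adjusted p = 0.711) with 4 controls, -0.18 ± 0.09 without HC 1 and HC 2, and -0.24 ± 0.05 (adjusted p = 0.0378) with all arrays set to 1 distribution, where it was the 1 member called lower than HC. No share of all rows was counted for that fit, so this call has no background beside it.

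Psma2 gave 6.41, 6.69, 6.95 and 7.17 in HC, 7.01, 7.46 and 7.28 in CSD1, 6.88, 7.00, 7.08 and 7.03 in CSD7, 6.91, 6.92, 6.91 and 6.70 in CSD14, and 6.84, 6.70, 6.90 and 6.94 in CSDrec. HC 6 lay above all CSD7, CSD14 and CSDrec animals. Its differences from HC were 0.44 ± 0.14, 0.19 ± 0.13, 0.05 ± 0.13 and 0.04 ± 0.13 (SE, CSD1, CSD7, CSD14 and CSDrec minus HC) with adjusted p of 0.0593, 0.312, 0.811 and 0.87. They became 0.19 ± 0.12, -0.06 ± 0.11, -0.20 ± 0.11 and -0.22 ± 0.11 without HC 1 and HC 2, with the sign turned in CSD7, CSD14 and CSDrec.

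Psma6 read 8.02, 7.88, 8.11 and 8.34 in HC, 8.12, 8.65 and 8.46 in CSD1, 8.08, 8.24, 8.25 and 8.46 in CSD7, 8.15, 8.35, 8.25 and 8.27 in CSD14, and 8.04, 7.99, 8.12 and 8.08 in CSDrec. It had the only negative difference in CSDrec, -0.03 ± 0.11 (SE, adjusted p = 0.875) with 4 controls and -0.17 ± 0.12 without HC 1 and HC 2, and each of the 4 CSDrec animals was below each CSD14 animal. Psma8, the testis form of the alpha ring subunit encoded by Psma7 elsewhere, was measured at 4.08, 3.86, 4.43 and 4.64 in HC, 4.49, 4.54 and 4.58 in CSD1, 4.20, 4.44, 4.60 and 4.45 in CSD7, 4.47, 4.42, 4.31 and 4.42 in CSD14, and 4.65, 4.56, 4.54 and 4.50 in CSDrec. Its groups overlapped HC, and the differences were 0.28 ± 0.14, 0.17 ± 0.13, 0.15 ± 0.13 and 0.31 ± 0.13 (SE, CSD1, CSD7, CSD14 and CSDrec minus HC) with adjusted p of 0.172, 0.362, 0.436 and 0.138, none past the test. They became -0.0021 ± 0.10, -0.12 ± 0.09, -0.13 ± 0.09 and 0.02 ± 0.09 without HC 1 and HC 2, below 0 in CSD1, CSD7 and CSD14.

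In the beta ring 3 of 7 genes passed in CSD1 (Psmb3, Psmb6, Psmb7), 3 in CSD7 (Psmb2, Psmb6, Psmb7) and 1 in CSD14 (Psmb7). Of expressed rows 12.6%, 19.2% and 14.5% passed as higher there, so the CSD14 count was near the background. Both catalytic subunits with a row of their own were among the beta ring genes called. Psmb7, the trypsin-like subunit, was measured at 7.34, 7.28, 7.29 and 7.53 in HC, 7.58, 8.11 and 7.93 in CSD1, 7.65, 7.78, 7.71 and 7.86 in CSD7, 7.71, 7.72, 7.77 and 7.58 in CSD14, and 7.48, 7.43, 7.47 and 7.64 in CSDrec. All CSD1, CSD7 and CSD14 animals lay above all HC animals, and HC 1 and HC 2 were close to HC 5. The differences were 0.51 ± 0.10, 0.39 ± 0.10, 0.34 ± 0.10 and 0.15 ± 0.10 (SE, CSD1, CSD7, CSD14 and CSDrec minus HC) with adjusted p of 0.0272, 0.0239, 0.0416 and 0.332. Without HC 1 and HC 2 they were 0.46 ± 0.12, 0.34 ± 0.12, 0.29 ± 0.12 and 0.10 ± 0.12, values close to those with 4 controls, although none passed the test.

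Psmb6, the caspase-like subunit, gave 6.37, 6.53, 6.57 and 6.83 in HC, 6.80, 7.32 and 7.18 in CSD1, 6.98, 7.21, 6.92 and 6.95 in CSD7, 6.89, 6.94, 7.07 and 6.84 in CSD14, and 6.71, 6.79, 6.65 and 6.97 in CSDrec. CSD7 and CSD14 lay wholly above HC, while CSD1 4 fell below HC 6 and CSDrec overlapped the controls. The differences were 0.53 ± 0.12, 0.44 ± 0.12, 0.36 ± 0.12 and 0.21 ± 0.12 (SE, CSD1, CSD7, CSD14 and CSDrec minus HC) with adjusted p of 0.0313, 0.0277, 0.0587 and 0.254. They became 0.40 ± 0.14, 0.32 ± 0.13, 0.24 ± 0.13 and 0.08 ± 0.13 without HC 1 and HC 2.

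Psmb3, a structural beta subunit, had one of the largest CSD1 differences and also one of the widest control ranges, at 5.62, 5.12, 6.28 and 6.52 in HC, 6.45, 6.82 and 6.62 in CSD1, 6.44, 6.55, 6.32 and 6.37 in CSD7, 6.40, 6.46, 6.51 and 6.38 in CSD14, and 6.36, 6.40, 6.33 and 6.32 in CSDrec. HC 2 was the lowest array by far, and HC 6 lay above all stressed animals except CSD1 18, CSD1 19 and CSD7 16. The CSD1 difference was 0.74 ± 0.21 (SE, adjusted p = 0.0469), and 0.23 ± 0.10 without HC 1 and HC 2.

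Psmb11 was near background throughout, at 3.36, 2.47, 2.87 and 2.70 in HC, 2.93, 2.73 and 2.73 in CSD1, 3.0, 2.90, 2.85 and 2.80 in CSD7, 2.76, 2.78, 2.95 and 2.70 in CSD14, and 3.05, 3.05, 2.88 and 2.79 in CSDrec, and HC 1 held its highest value. Its differences from HC were -0.06 ± 0.14, 0.03 ± 0.13, -0.05 ± 0.13 and 0.09 ± 0.13 (SE, CSD1, CSD7, CSD14 and CSDrec minus HC) with adjusted p of 0.823, 0.88, 0.816 and 0.686. They became 0.01 ± 0.10, 0.10 ± 0.10, 0.01 ± 0.10 and 0.15 ± 0.10 without HC 1 and HC 2.

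In the regulatory particle 10, 5, 3 and 0 of 17 genes passed in the 4 comparisons with HC, with median differences of 0.57, 0.42, 0.36 and 0.31. The core had 4, 3, 1 and 0 of 13, with medians of 0.47, 0.31, 0.28 and 0.15. Of expressed rows 12.6%, 19.2%, 14.5% and 0.0364% passed as higher. In CSD14 the core lay below that share and the regulatory particle just above it, and in CSD7 the core was near it. Without HC 1 and HC 2 the medians were 0.22, 0.05, 0.04 and -0.05 for the regulatory particle and 0.20, 0.03, 0.03 and -0.10 for the core. The difference between the particles was not tested.

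Among the 6 ATPases, the motor that pulls substrates into the barrel, Psmc1, Psmc3, Psmc4 and Psmc5 passed in CSD1 and Psmc4 in CSD7. Psmc5 had the largest CSD1 difference of the whole set, from 5.40, 5.24, 6.38 and 6.35 in HC, 6.41, 6.89 and 6.71 in CSD1, 6.39, 6.43, 6.37 and 6.41 in CSD7, 6.38, 6.44, 6.48 and 6.23 in CSD14, and 6.40, 6.15, 6.21 and 6.45 in CSDrec. All 3 CSD1 animals lay above all HC animals, although CSD1 4 exceeded HC 5 only slightly. The differences were 0.82 ± 0.22, 0.56 ± 0.20, 0.54 ± 0.20 and 0.46 ± 0.20 (SE, CSD1, CSD7, CSD14 and CSDrec minus HC) with adjusted p of 0.0377, 0.0727, 0.0921 and 0.157. They became 0.30 ± 0.12, 0.03 ± 0.11, 0.01 ± 0.11 and -0.06 ± 0.11 without HC 1 and HC 2, where the adjusted p in CSD1 was 0.475.

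Psmc6 was high in HC 5 and HC 6, at 6.32, 6.31, 7.32 and 7.43 in HC, 7.18, 7.72 and 7.43 in CSD1, 6.90, 6.99, 7.20 and 7.44 in CSD7, 7.07, 7.21, 6.85 and 7.00 in CSD14, and 6.82, 6.52, 7.15 and 7.06 in CSDrec. Of the stressed animals only CSD1 18, CSD1 19 and CSD7 25 exceeded HC 5, while HC 1 and HC 2 lay below all 15. Its CSDrec difference was 0.04 ± 0.23 (SE, adjusted p = 0.917) with 4 controls and -0.49 ± 0.18 without HC 1 and HC 2 (unadjusted p = 0.0159, adjusted p = 0.628).

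All 3 non-ATPase base subunits passed in CSD1. Psmd2, a scaffold that docks ubiquitin shuttles, had the lowest p of the set in the F-test over the 4 differences, which 0 members and 0.555% of all rows passed (adjusted p = 0.0506). It was measured at 7.04, 6.96, 7.28 and 7.30 in HC, 7.39, 7.90 and 7.74 in CSD1, 7.55, 7.68, 7.65 and 7.66 in CSD7, 7.50, 7.63, 7.63 and 7.60 in CSD14, and 7.50, 7.54, 7.51 and 7.73 in CSDrec. All 15 stressed animals lay above all 4 controls, including HC 5 and HC 6, and CSDrec 31 stood above the other CSDrec animals. The differences were 0.53 ± 0.11, 0.49 ± 0.10, 0.44 ± 0.10 and 0.42 ± 0.10 (SE, CSD1, CSD7, CSD14 and CSDrec minus HC) with adjusted p of 0.0272, 0.0162, 0.0203 and 0.0605. They became 0.38 ± 0.11, 0.34 ± 0.11, 0.30 ± 0.11 and 0.28 ± 0.11 without HC 1 and HC 2, with unadjusted p of 0.00363, 0.00545, 0.0127 and 0.0197 and adjusted p of 0.317, 0.303, 0.388 and 0.641. Psmd1, the largest scaffold of the base, passed in CSD1 at 0.52 ± 0.13 (SE, adjusted p = 0.0355) and in CSD7 at 0.44 ± 0.12 (SE, adjusted p = 0.0359), values that became 0.25 ± 0.10 and 0.16 ± 0.10 without HC 1 and HC 2. Psmd4, a ubiquitin receptor, passed in CSD1 at 0.58 ± 0.16 (SE, adjusted p = 0.0401), and its difference was 0.22 ± 0.08 without those 2 arrays.

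In the lid, Psmd3, Psmd7 and Psmd11 passed in CSD1 and Psmd3 and Psmd7 in CSD7 and CSD14. Psmd7, the partner of the deubiquitinase subunit Psmd14, gave 7.31, 7.24, 7.67 and 7.75 in HC, 7.76, 8.19 and 8.20 in CSD1, 7.91, 7.97, 8.05 and 7.96 in CSD7, 7.97, 7.90, 7.92 and 7.84 in CSD14, and 7.87, 7.72, 7.84 and 8.01 in CSDrec. All animals of CSD1, CSD7 and CSD14 lay above all controls, and of CSDrec only animal 29 did not. The differences were 0.56 ± 0.12, 0.48 ± 0.11, 0.42 ± 0.11 and 0.37 ± 0.11 (SE, CSD1, CSD7, CSD14 and CSDrec minus HC) with adjusted p of 0.0296, 0.0219, 0.0364 and 0.0773. They became 0.34 ± 0.11, 0.26 ± 0.11, 0.20 ± 0.11 and 0.15 ± 0.11 without HC 1 and HC 2.

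Psmd3, a lid scaffold, had the largest difference in CSD14 and CSDrec, from 5.22, 5.16, 5.96 and 5.97 in HC, 6.03, 6.47 and 6.22 in CSD1, 6.01, 6.36, 5.95 and 6.10 in CSD7, 6.11, 6.24, 6.23 and 6.12 in CSD14, and 6.13, 6.10, 5.92 and 6.02 in CSDrec. HC 1 and HC 2 lay below HC 5 and HC 6, and every CSD1 and CSD14 animal lay above all 4. The differences were 0.67 ± 0.17, 0.53 ± 0.16, 0.60 ± 0.16 and 0.47 ± 0.16 (SE, CSD1, CSD7, CSD14 and CSDrec minus HC) with adjusted p of 0.0375, 0.0439, 0.0348 and 0.0945. They became 0.28 ± 0.12, 0.14 ± 0.12, 0.21 ± 0.12 and 0.08 ± 0.12 without HC 1 and HC 2. Psmd14 itself passed in no comparison, at 0.46 ± 0.14 (SE, adjusted p = 0.0551) in CSD1 with 4 controls and 0.15 ± 0.10 with 2.

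**Figure D4:**
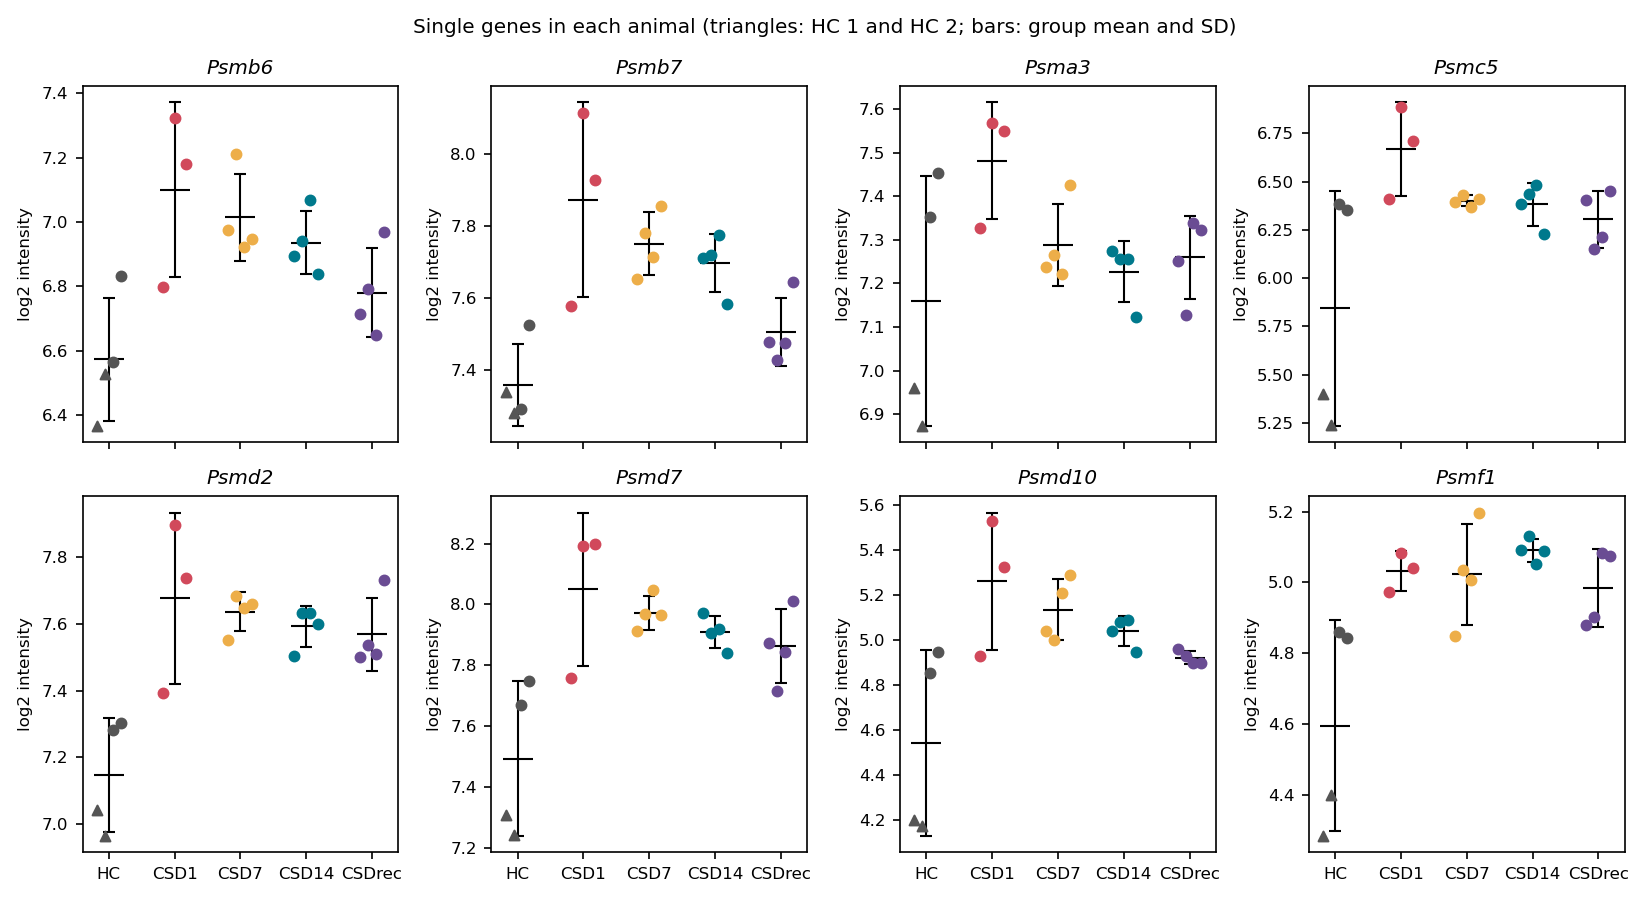
Log2 intensity of 8 genes in each of 19 animals by group, with the group mean and SD as bars and triangles for HC 1 and HC 2. In Psmb7, Psmd2 and Psmd7 the CSD1, CSD7 and CSD14 animals lie above all 4 HC animals, while in Psma3 HC 5 and HC 6 overlap or exceed the stressed animals.

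The chaperones that assemble the regulatory particle had 2 of 3 members past the test in CSD1 and in CSD7. Psmd10 (gankyrin), which holds an ATPase during assembly, was measured at 4.20, 4.17, 4.85 and 4.95 in HC, 4.93, 5.53 and 5.32 in CSD1, 5.04, 5.00, 5.21 and 5.29 in CSD7, 5.04, 5.08, 5.09 and 4.95 in CSD14, and 4.96, 4.93, 4.90 and 4.90 in CSDrec. CSD7 lay wholly above HC, CSD1 4 was just below HC 6, and CSDrec fell between HC 5 and HC 6 or just above. The differences were 0.72 ± 0.17, 0.59 ± 0.16, 0.50 ± 0.16 and 0.38 ± 0.16 (SE, CSD1, CSD7, CSD14 and CSDrec minus HC) with adjusted p of 0.0308, 0.0276, 0.0553 and 0.139. They became 0.36 ± 0.13, 0.24 ± 0.12, 0.14 ± 0.12 and 0.02 ± 0.12 without HC 1 and HC 2.

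Psmd5, another base chaperone, gave 5.96, 5.92, 6.64 and 6.77 in HC, 6.63, 7.20 and 7.19 in CSD1, 6.83, 6.90, 7.04 and 6.93 in CSD7, 6.75, 6.85, 6.87 and 6.66 in CSD14, and 6.64, 6.61, 6.68 and 6.92 in CSDrec. The whole CSD7 group lay above HC. Its differences were 0.69 ± 0.18, 0.61 ± 0.17, 0.46 ± 0.17 and 0.39 ± 0.17 (SE, CSD1, CSD7, CSD14 and CSDrec minus HC) with adjusted p of 0.0383, 0.0333, 0.0864 and 0.152. They became 0.31 ± 0.14, 0.22 ± 0.14, 0.08 ± 0.14 and 0.01 ± 0.14 without HC 1 and HC 2. Psmd9 passed in no comparison.

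Of the core assembly chaperones only Psmg2 passed, in CSD7 alone, and at the edge of the threshold. It was measured at 5.19, 4.91, 5.81 and 6.04 in HC, 5.76, 6.28 and 6.22 in CSD1, 5.88, 6.03, 6.07 and 6.27 in CSD7, 5.93, 6.01, 6.02 and 5.96 in CSD14, and 5.92, 5.83, 5.99 and 5.99 in CSDrec. HC 6 fell inside the CSD7 range. The CSD7 difference was 0.58 ± 0.18 (SE, adjusted p = 0.0497), and 0.14 ± 0.13 without HC 1 and HC 2. Its partner Psmg1 was at 0.42 ± 0.14 (SE, adjusted p = 0.0635) in CSD1 and at 0.15 ± 0.11 without those arrays.

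Psmg3 and Psmg4, which act as another chaperone pair on the alpha ring, passed in no comparison. Psmg3 gave 3.0, 3.23, 3.29 and 3.47 in HC, 3.32, 3.24 and 3.27 in CSD1, 3.31, 3.61, 3.23 and 3.34 in CSD7, 3.51, 3.36, 3.33 and 3.36 in CSD14, and 3.46, 3.31, 3.34 and 3.32 in CSDrec, and Psmg4 gave 4.36, 4.48, 4.52 and 4.56 in HC, 4.36, 4.63 and 4.61 in CSD1, 4.64, 4.86, 4.45 and 4.59 in CSD7, 4.47, 4.60, 4.92 and 4.65 in CSD14, and 4.81, 4.67, 4.43 and 4.61 in CSDrec. The groups overlapped in both genes, and the differences were 0.03 ± 0.10, 0.12 ± 0.09, 0.14 ± 0.09 and 0.11 ± 0.09 (SE, CSD1, CSD7, CSD14 and CSDrec minus HC) with adjusted p of 0.877, 0.37, 0.325 and 0.462 for Psmg3 and 0.05 ± 0.12, 0.16 ± 0.11, 0.18 ± 0.11 and 0.15 ± 0.11 (SE, CSD1, CSD7, CSD14 and CSDrec minus HC) with adjusted p of 0.777, 0.314, 0.268 and 0.375 for Psmg4. Without HC 1 and HC 2 they were -0.11 ± 0.10, -0.0095 ± 0.09, 0.0073 ± 0.09 and -0.02 ± 0.09 for Psmg3 and -0.0054 ± 0.14, 0.10 ± 0.13, 0.12 ± 0.13 and 0.09 ± 0.13 for Psmg4, so the sign turned in 3 comparisons for Psmg3 and in CSD1 for Psmg4.

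Psmf1 (PI31), which blocks the core in vitro and also takes part in proteasome transport and assembly, was called in CSD1, CSD7 and CSD14. It was measured at 4.28, 4.40, 4.86 and 4.84 in HC, 4.97, 5.08 and 5.04 in CSD1, 4.85, 5.03, 5.01 and 5.20 in CSD7, 5.09, 5.13, 5.05 and 5.09 in CSD14, and 4.88, 4.90, 5.08 and 5.07 in CSDrec. All CSD1, CSD14 and CSDrec animals lay above all 4 controls, and CSD7 9 fell at the level of HC 5 and HC 6. The differences were 0.44 ± 0.12, 0.43 ± 0.11, 0.50 ± 0.11 and 0.39 ± 0.11 (SE, CSD1, CSD7, CSD14 and CSDrec minus HC) with adjusted p of 0.0428, 0.0282, 0.0212 and 0.0703. They became 0.18 ± 0.09, 0.17 ± 0.09, 0.24 ± 0.09 and 0.13 ± 0.09 without HC 1 and HC 2. In CSD14 the difference with all arrays set to 1 distribution was 0.20 (adjusted p = 0.120).

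The activators cap the core in place of the regulatory particle, and neither passed. Psme3 (PA28 gamma, nuclear) gave 6.94, 6.69, 7.28 and 7.23 in HC, 7.26, 7.48 and 7.59 in CSD1, 7.32, 7.14, 7.44 and 7.54 in CSD7, 7.31, 7.24, 7.23 and 7.13 in CSD14, and 7.13, 7.10, 7.42 and 7.26 in CSDrec. Its differences were 0.41 ± 0.13, 0.33 ± 0.12, 0.20 ± 0.12 and 0.19 ± 0.12 (SE, CSD1, CSD7, CSD14 and CSDrec minus HC) with adjusted p of 0.0616, 0.0833, 0.297 and 0.308. They became 0.19 ± 0.12, 0.10 ± 0.11, -0.03 ± 0.11 and -0.03 ± 0.11 without HC 1 and HC 2. Psme4 (PA200) gave 4.84, 4.78, 5.52 and 5.54 in HC, 5.45, 5.67 and 5.57 in CSD1, 5.32, 5.25, 5.58 and 5.86 in CSD7, 5.47, 5.37, 5.05 and 5.35 in CSD14, and 5.41, 5.29, 5.66 and 5.50 in CSDrec. The differences were 0.39 ± 0.18, 0.33 ± 0.17, 0.14 ± 0.17 and 0.29 ± 0.17 (SE, CSD1, CSD7, CSD14 and CSDrec minus HC) with adjusted p of 0.16, 0.185, 0.605 and 0.275. They became 0.03 ± 0.16, -0.03 ± 0.15, -0.22 ± 0.15 and -0.07 ± 0.15 without HC 1 and HC 2. The differences of both activators in CSD14 and CSDrec, and of Psme4 in CSD7, were then below 0. In both genes the stress groups overlapped HC 5 and HC 6.

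The balance between core and regulatory particle was read within each array, as the core mean minus the regulatory mean. It was 0.37 in HC 1 and 0.39 in HC 2, 0.17 in HC 5 and 0.25 in HC 6, and 0.14 to 0.28 in the 15 stressed animals. The group means were 0.29 ± 0.11 (SD, n = 4) in HC, 0.20 ± 0.01 (n = 3) in CSD1, 0.22 ± 0.02 (n = 4) in CSD7, 0.21 ± 0.05 (n = 4) in CSD14 and 0.17 ± 0.03 (n = 4) in CSDrec. Their differences from HC of -0.09, -0.08, -0.09 and -0.12 became -0.0052, 0.010, -0.0025 and -0.033 without HC 1 and HC 2. No test was made.

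**Figure D5:**
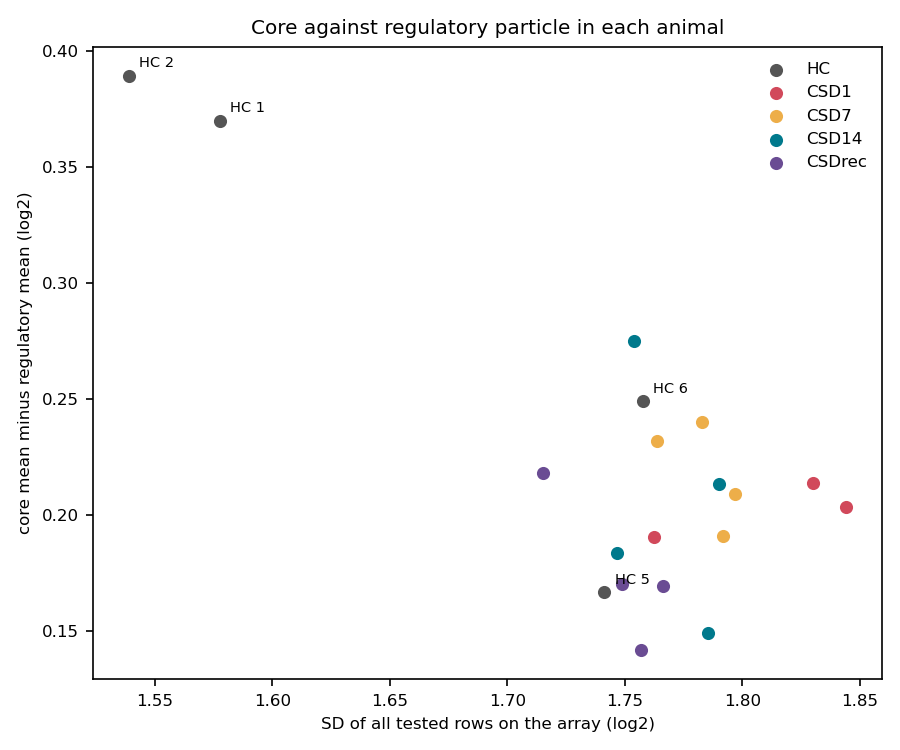
Core mean minus regulatory mean (log2, vertical axis) against the SD of all tested rows on the array (horizontal axis) for 19 animals. HC 1 and HC 2 lie apart on both axes, at 0.37 and 0.39 and an SD of 1.58 and 1.54, and the other 17 animals lie between 0.14 and 0.28.

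Between stress groups no member passed (lowest adjusted p = 1.00 in all 4 comparisons), and 0 of 65956 rows did. At an unadjusted p under 0.05, Psma2 and Psma3 were lower in CSD14 than in CSD1, by -0.39 ± 0.14 (SE, unadjusted p = 0.0122) and -0.25 ± 0.12 (SE, unadjusted p = 0.0453), where 1.48% of all rows were, and no other comparison had any such member. The median member difference of CSD14 from CSD1 was -0.16, with 5 of 42 above 0, beside -0.02 over expressed rows. In the fit without HC 1 and HC 2, which here changes only the estimate of the spread, 8 members were lower in CSD7 than in CSD1 at an unadjusted p under 0.05, 13 in CSD14 than in CSD1 and 2 in CSDrec than in CSD14. Of all rows 1.72%, 3.34% and 2.72% were, and no member passed after adjustment (lowest adjusted p = 0.687, in CSDrec against CSD14). In 4 members every CSD14 animal was lower than any CSD1 animal (Psma2, Psma3, Psma8, Psmd14) and in Psmg3 higher, where 3.03% and 4.65% of all rows were. In 3 members values were lower in every CSDrec than in any CSD14 animal (Psma6, Psmb1, Psmc4) and in Psma8 higher, against 2.33% and 2.50%.

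Promoter sequence was available in RefSeq (build GRCm38.p6, windows of 250 bases before to 50 after a start) for 34 of the 42 genes. A search for 5 short motifs was made on both strands, since genes of one complex can share such elements. The Nfe2l1-type element TGACNNNGC occurred in 5 of 34 members (14.7%), in 14% of all 27025 genes with a window and in 16.4% of the 11527 expressed above the receptor level. The ETS core CCGGAAG occurred in 14 of 34 members (41.2%), 9.93% of all genes and 16.8% of expressed genes. The shares for CCAAT were 38.2%, 41.1% and 41.5%, for the GC box GGGCGG 58.8%, 38.2% and 62.9%, and for the heat shock core GAANNTTC 2.94%, 9.04% and 6.84%. Of the 13 members higher in CSD1 that have a window, 4 held the ETS core and 1 the Nfe2l1-type element. The stretches below show these 5 in the genes called in CSD1, with the motif in capitals, reading 5′ to 3′ on the gene's strand and lying upstream of its start:
Psmb6 (chr11:70525328-70525356, plus strand): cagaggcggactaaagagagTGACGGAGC
Psmc1 (chr12:100110163-100110191, plus strand): tggtggatgcaCTTCCGGcggtggcgatt
Psmd2 (chr16:20651615-20651643, plus strand): tccgcagggcgCTTCCGGtctggaggaca
Psmd4 (chr3:95042722-95042750, minus strand): ttacagctgttCCGGAAGctgctgcgaag
Psmd11 (chr11:80428586-80428614, plus strand): aggaacgcgagggcgggtCTTCCGGgtgt
A match in these letters is a description and does not show that a factor binds.

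Genes around the proteasome were counted from lists of known partners. Beside these counts, 12.6%, 19.2%, 14.5% and 0.0364% of expressed rows passed as higher in CSD1, CSD7, CSD14 and CSDrec. Of the immunoproteasome genes Psmb8, Psmb9 and Psmb10 and the activator subunit Psme1, 0 of 4 passed in any comparison, with CSD1 differences of 0.39 ± 0.15 (SE, adjusted p = 0.102) for Psmb8, 0.29 ± 0.19 (SE, adjusted p = 0.323) for Psmb10, 0.24 ± 0.11 (SE, adjusted p = 0.164) for Psme1 and 0.19 ± 0.10 (SE, adjusted p = 0.223) for Psmb9. Without HC 1 and HC 2 these 4 were 0.12, 0.03, 0.05 and 0.04. Of 9 further partners (deubiquitinases, the assembly factor Pomp, and others) 0 passed. The CSD1 differences were largest in Uchl5, a deubiquitinase of the base, at 0.60 ± 0.18 (SE, adjusted p = 0.0563), Txnl1, a thioredoxin bound to the regulatory particle, at 0.57 ± 0.22 (SE, adjusted p = 0.0967), and Ube3c, a ligase that extends ubiquitin chains on the proteasome, at 0.57 ± 0.19 (SE, adjusted p = 0.0641). They fell to 0.20, 0.06 and 0.16 without HC 1 and HC 2. Of 4 shuttle factors, which carry ubiquitinated proteins to the particle, the CSD1 differences were largest in Ubqln2, at 0.74 ± 0.26 (SE, adjusted p = 0.0811), and Ubqln1, at 0.53 ± 0.19 (SE, adjusted p = 0.0879), and without HC 1 and HC 2 these were 0.08 and 0.07. Only Ubqln4, named for that reason after its values were seen, passed in any comparison, in CSD14, at 0.41 ± 0.12 (SE, adjusted p = 0.0412) with 4 controls and 0.15 (adjusted p = 0.686) without HC 1 and HC 2.

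Of 7 genes of the Nfe2l1 axis and p97, the ATPase that extracts ubiquitinated proteins from membranes, 3 passed in CSD1 (Vcp, Ufd1, Nploc4), 4 in CSD7 (Nfe2l1, Nfe2l2, Ufd1, Nploc4), 4 in CSD14 (Nfe2l2, Syvn1, Ufd1, Nploc4) and 0 in CSDrec. Of expressed rows 12.6%, 19.2%, 14.5% and 0.0364% passed as higher. The median difference of the 7 was 0.45, 0.41, 0.39 and 0.32. It was 0.15, 0.20, 0.15 and 0.07 without HC 1 and HC 2, and -0.00040, 0.019, 0.028 and 0.020 with all arrays set to 1 distribution. Nploc4, a p97 cofactor, was at 0.61 ± 0.17 (SE, adjusted p = 0.0441) in CSD1, 0.63 ± 0.16 (SE, adjusted p = 0.0259) in CSD7 and 0.65 ± 0.16 (SE, adjusted p = 0.026) in CSD14. Nfe2l2, a transcription factor of the oxidative stress response related to Nfe2l1, was at 0.61 ± 0.15 (SE, adjusted p = 0.0229) in CSD7 and 0.65 ± 0.15 (SE, adjusted p = 0.0211) in CSD14. Without HC 1 and HC 2 none of the 7 passed, Nploc4 stood at 0.24 (adjusted p = 0.639) in CSD1, and Nfe2l2 at 0.29 (adjusted p = 0.386) in CSD14. Uba6, an E1 enzyme, was the only gene of the ubiquitin list with a row of its own and passed in no comparison.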

How the data were processed

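The authors deposited log2 expression values of 19 mouse transcriptome arrays, 1 a mouse, in 72688 rows. The labels credit the values to Affymetrix Expression Console and RMA (background-corrected, normalized and summarised probe sets), whereas the study's methods describe Partek software, quantile normalization and a different array name. Array SDs differ, so the arrays did not share 1 distribution as deposited. That bears on every difference from home cage controls, and all arrays were therefore also set to 1 distribution. Control rows (6732) were left out, and 65956 rows were tested. The labels give 1 home cage mouse (HC 5) a stressed diet field against its title and source, which were followed. They give 10 min encounters, where the methods name shorter ones. All 19 value columns were used, and 0 others held sample values.

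Groups came from the labels, and replicates were separate mice. limma 3.58.1 (lmFit and eBayes) in R 4.3.3 (data.table package, version 1.17.8) was fitted to all 5 groups (14 residual and 3.60 prior degrees of freedom), with Benjamini-Hochberg adjustment over all rows of a comparison and a threshold of 0.05. The fit was tested on simulated data with independent rows and known steps added to CSD1. That simulation held no arrays like HC 1 and HC 2, so it cannot speak to calls that depended on them. Rows with several symbols were given to no gene, and 2 pseudogene rows were left out. The number of arrays limits the precision.

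The members and gene lists were chosen with earlier results of these data known. Every member was counted by class. Named with values in every animal were the catalytic, inhibitory, activating and tissue-restricted members, the 3 most positive and 3 most negative differences in each comparison with HC, the 3 lowest F-test p and the lowest p between stress groups, and of other lists 2 to 4 genes with the largest differences. Alternatives were leaving out each animal, leaving out HC 1 and HC 2, 1 distribution, array weights, only expressed rows, 1 averaged row per gene, only the groups compared and an unmoderated ANOVA for the F-test. Another background correction could not be run on summarised values, and no slide or scan was named for a block. Promoters were read with Python 3.11.15 and figures drawn with matplotlib 3.10.9.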

Additional observations from a re-analysis of the deposited data

Results flagged for a closer look

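Of 132 groups of 4 animals, 4 had 1 animal set far from the other 3 by Dixon's test, where chance flags about 1 in 20 groups. In Psma2, an alpha ring subunit, CSD14 15 read 6.70 against 6.91 to 6.92 in the other CSD14 animals. The same animal was low in the alpha ring subunit Psma3, at 7.12 against 7.26 to 7.27. In Psmg3, a chaperone of alpha ring assembly, CSD14 12 was high at 3.51 against 3.33 to 3.36. In the base scaffold Psmd2, CSDrec 31 was high at 7.73 against 7.50 to 7.54.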

How the results depend on the processing

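No paired analysis was possible because the groups share no animal numbers. The number of members higher than HC was 17 in CSD1, 12 in CSD7 and 5 in CSD14. It became 0, 0 and 0 without HC 1 and HC 2, with all arrays set to 1 distribution (1 lower in CSD14), and with only the arrays of the groups compared, where fewer samples enter. It became 28, 0 and 1 with array weights, which also gave 17 members differing between CSD14 and CSD1 and 26 past the F-test (0 in the main result). Under these weights CSD1 19 counted 9.91, the next highest array 1.84 and CSD1 4 0.51, so the CSD1 values there rested largely on 1 animal. Testing expressed rows alone, with fewer rows, gave 30 in CSD1, 10 in CSD14, 2 in CSDrec and 3 by F-test, and 1 averaged row per gene 30, 19, 13 and 3, with 6 by F-test. Shares of all rows were not counted for array weights or averaged rows, so those counts have no background beside them.

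The median member difference, 0.50, 0.35, 0.32 and 0.26 in CSD1, CSD7, CSD14 and CSDrec, became 0.19, 0.063, 0.031 and -0.028 without HC 1 and HC 2, 0.090, -0.0034, 0.0086 and -0.049 with 1 distribution, and 0.29, 0.11, 0.10 and 0.036 with array weights. Core minus regulatory particle became -0.0052, 0.010, -0.0025 and -0.033 without HC 1 and HC 2, and stayed at -0.069, -0.052, -0.065 and -0.094 with 1 distribution. Psma3 in CSD14 turned from 0.07 to -0.24 with 1 distribution. Of 84 named differences from HC, 27 changed sign uncalled with 1 distribution, 25 without HC 1 and HC 2 and 11 with array weights. The cause was not tested.

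Leaving out 1 animal gave 0 to 39 members in CSD1, 0 to 30 in CSD7, 0 to 29 in CSD14, 0 to 20 in CSDrec and 0 to 24 by F-test, with 0 lower and 0 between stress groups. The lowest counts came without HC 1 or HC 2 and the highest without HC 6. Without HC 5 the counts were 36, 28, 21 and 10. No share of all rows was counted for these fits. In CSD7 the count was 4 without CSD7 25 and 6 without CSD7 9, and in CSD14 it was 1 without CSD14 12 or 14 and 2 without CSD14 15. Medians ranged from 0.40 to 0.63, 0.23 to 0.46, 0.22 to 0.41 and 0.16 to 0.38, and core minus regulatory particle from -0.13 to -0.059, -0.12 to -0.044, -0.13 to -0.057 and -0.16 to -0.087.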
